A study of Homo sapiens with 16 samples.

Results

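The genes of prostaglandin and leukotriene synthesis were followed through stepwise gemcitabine selection of bladder cancer cells. They were 10 of the 39007 genes listed by symbol, chosen by name: PLA2G4A, PTGS1, PTGS2, PTGES, HPGD, ALOX5, ALOX5AP, LTA4H, PTGER2 and PTGER4. T24 is an established human bladder carcinoma line, and the GRC1 cell line was derived from it by repeated exposure to gemcitabine, a nucleoside analogue used in chemotherapy. RNA of 16 libraries was sequenced, 4 each from T24 cells at parental phase P0 and from gemcitabine-resistant cells at early phase P3, at intermediate phase P7 and at late phase P15. The titles of all 16 libraries also carry the label NT, whose meaning is not given in the sources used here, so whether drug was present at harvest is not known. All libraries came from 1 cell line grown in DMEM with fetal bovine serum. The labels number the replicates without saying whether they were separate cultures, so the spread between them may be technical. Gemcitabine exposure, selection and time in culture changed together from phase to phase and cannot be told apart. The titles also end in S numbers, 5 of which occur in more than 1 phase, and their meaning is not given. Whether the phases were sequenced together is thus not known. Library totals, worked out from the steps between low values, were 33.8 to 50.0 M counts, so that 1 count equalled 0.02 to 0.0296 CPM, the unit of counts scaled to the library total.

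Arachidonic acid, a fatty acid held in membrane phospholipids, is released by phospholipases A2, of which cytosolic PLA2G4A is the form that prefers it. The cyclooxygenases PTGS1 and PTGS2 turn it into prostaglandin H2, from which PTGES makes prostaglandin E2 (PGE2), while HPGD inactivates PGE2. In the other branch, ALOX5 with its membrane partner ALOX5AP makes leukotriene A4, which LTA4H hydrolyses to leukotriene B4. PGE2 acts on neighbouring cells through receptors that include PTGER2 and PTGER4, both of which raise cAMP. In bladder tumours, PTGS2 and PGE2 have been linked to regrowth between rounds of chemotherapy.

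The starts of 4 of these genes are shown, because PTGS2 and PLA2G4A lie side by side on chromosome 1, ALOX5AP had the widest range over the phases and PTGER4 the next widest. Each line holds the 250 bases before the gene's start in RefSeq (GRCh38.p14), read 5′ to 3′ on the gene's strand. Capitals mark matches, on either strand, to the letters TGACG (the short site bound by CREB), TGANTCA (AP-1), CACGTG (the E-box), TATAAA (the TATA box), GGGCGG (the GC box) or the kappa-B motif.
PTGS2 (chr1:186680424-186680673, minus strand): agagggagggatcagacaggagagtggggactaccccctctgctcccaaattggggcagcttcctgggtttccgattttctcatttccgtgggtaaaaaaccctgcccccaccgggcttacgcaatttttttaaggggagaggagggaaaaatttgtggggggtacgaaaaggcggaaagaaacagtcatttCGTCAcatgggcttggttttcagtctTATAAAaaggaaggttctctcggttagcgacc
PLA2G4A (chr1:186828699-186828948, plus strand): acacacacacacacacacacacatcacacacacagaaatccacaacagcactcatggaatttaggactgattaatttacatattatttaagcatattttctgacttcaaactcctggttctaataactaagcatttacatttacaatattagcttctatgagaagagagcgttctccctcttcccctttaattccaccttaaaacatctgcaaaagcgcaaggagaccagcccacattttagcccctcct
ALOX5AP (chr13:30713235-30713484, plus strand): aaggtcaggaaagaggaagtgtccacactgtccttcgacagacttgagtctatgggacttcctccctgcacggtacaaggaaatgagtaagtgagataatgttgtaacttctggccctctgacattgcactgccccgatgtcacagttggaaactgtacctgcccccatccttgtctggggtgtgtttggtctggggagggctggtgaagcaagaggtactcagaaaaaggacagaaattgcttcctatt
PTGER4 (chr5:40679665-40679914, plus strand): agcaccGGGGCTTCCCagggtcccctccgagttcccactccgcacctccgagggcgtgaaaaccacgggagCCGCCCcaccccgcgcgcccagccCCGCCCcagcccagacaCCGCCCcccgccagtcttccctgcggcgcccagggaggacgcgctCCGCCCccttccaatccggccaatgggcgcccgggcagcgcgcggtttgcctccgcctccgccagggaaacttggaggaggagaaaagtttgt
The PTGS2 window held a short CREB site from base -58 to -54, counted back from the start, and a TATA box from -32 to -27. The windows of PLA2G4A and ALOX5AP held none of the 6 motifs. The PTGER4 window held 4 GC boxes and 1 kappa-B motif. In 35116 RefSeq promoters of the same length, the short CREB site was found in 21.2%, the TATA box in 10.7%, the GC box in 42.6%, the kappa-B motif in 5.21%, the AP-1 motif in 6.57% and the E-box in 6.34%. Base composition also set these starts apart from each other. PLA2G4A had a GC content of 38.8% with 2 CpG pairs and ALOX5AP 49.6% with 3, whereas PTGER4 had 72.8% with 26, against medians of 58.0% and 11 over all promoters. A match of letters is a description of the sequence and was not measured as a binding site. Sites that differ from the letters searched for, including other forms of the kappa-B motif, are not marked. The lack of a match thus does not show that a site is absent.

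Expression was taken as log2 of CPM plus 1, and phases were compared with limma over 13249 genes whose mean exceeded 1 CPM. A gene was called at an adjusted p-value below 0.05 (Benjamini-Hochberg, over all tested genes) and a change of at least 2-fold on that scale. Of the 10 genes, 7 passed the filter on the mean, and ALOX5, PTGER2 and HPGD did not. Since the genes were chosen with results of these libraries known, their calls are given as a description, without p-values. Comparisons next to each other in the series share the libraries of 1 phase.

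**Figure D1:**
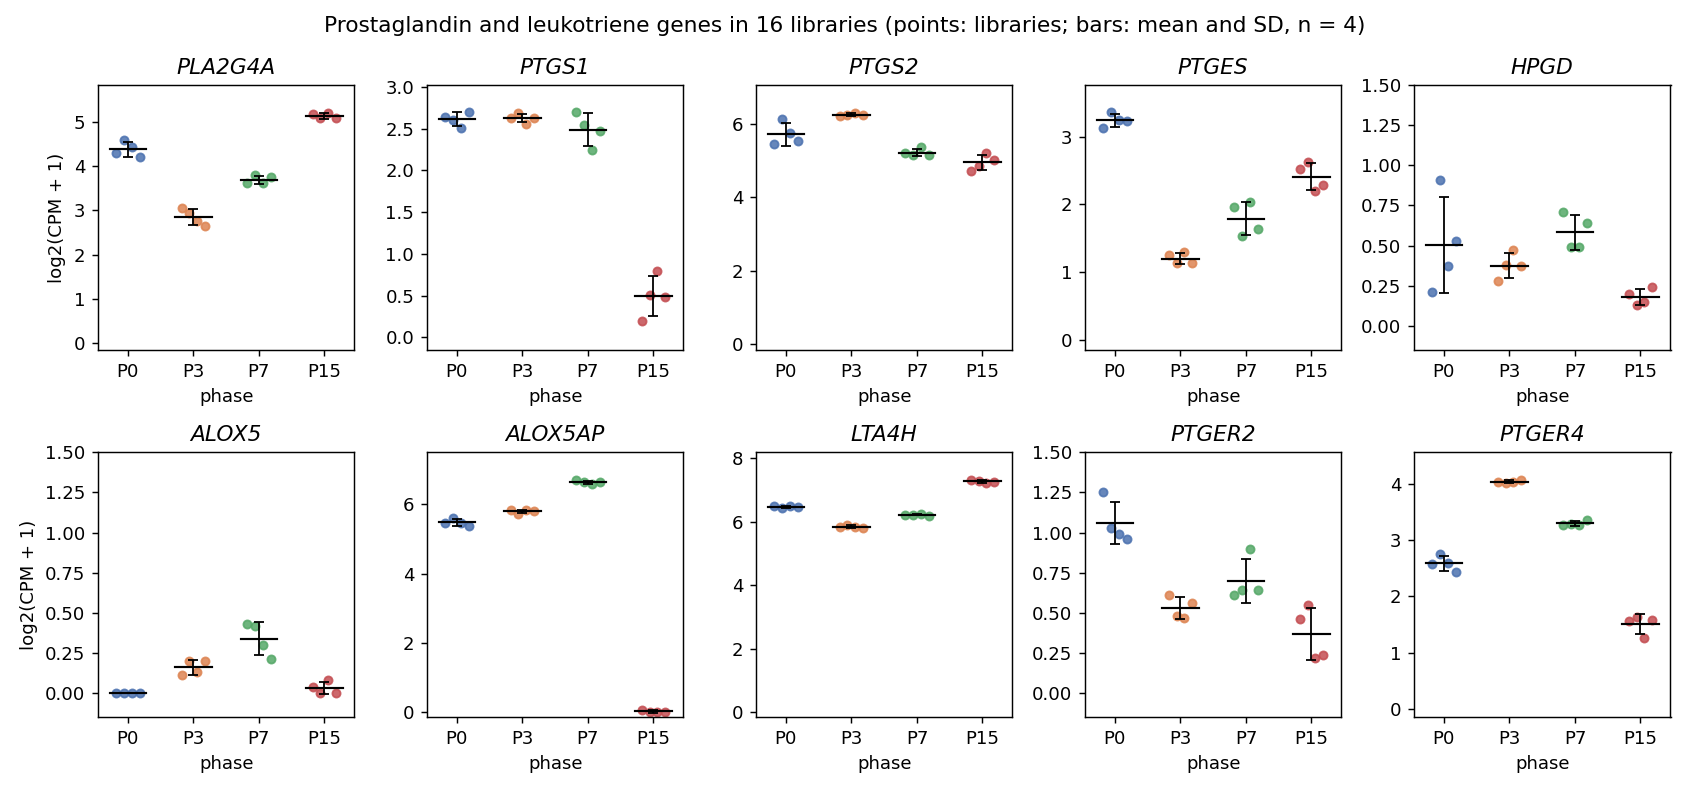
Expression of the 10 genes in log2(CPM + 1) at phases P0, P3, P7 and P15; points are libraries, and bars are the mean and SD of 4 libraries. ALOX5AP lies between 5.38 and 6.70 at P0 to P7 and at 0 to 0.07 at P15, while LTA4H and PLA2G4A are lowest at P3 and highest at P15; vertical scales differ between panels.

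PLA2G4A (cytosolic phospholipase A2; chromosome 1, 186828949 to 186988981, GRCh38) was lowest in early phase P3 and highest in late phase P15. Its log2 values in the 4 libraries were 4.30, 4.59, 4.44 and 4.21 at P0, 3.06, 2.95, 2.77 and 2.65 at P3, 3.61, 3.80, 3.62 and 3.75 at P7, and 5.18, 5.08, 5.21 and 5.09 at P15. No library of one phase overlapped with those of another. On the linear scale, the phase means were 20.0, 6.29, 11.97 and 34.3 CPM. Relative to P0, the log2 value at P3 was lower by a called 2.88-fold (log2 fold change -1.53, standard error 0.084). From P3 to P7 the log2 fold change was 0.84, which did not reach 2-fold, and from P7 to P15 it was a called 1.44 (standard error 0.084). P15 differed from P0 by 0.76, below the 2-fold limit.

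The constitutive cyclooxygenase PTGS1 (chromosome 9, 122370530 to 122395703) was level over the first 3 phases and low in late phase P15. Its log2 values were 2.64, 2.61, 2.51 and 2.70 at P0, 2.63, 2.69, 2.56 and 2.63 at P3, 2.70, 2.55, 2.24 and 2.47 at P7, and 0.20, 0.51, 0.79 and 0.48 at P15. The libraries of P0, P3 and P7 overlapped, and all 4 libraries of P15 lay below every other. Mean expression was 5.13 CPM at P0, 5.18 at P3, 4.65 at P7 and 0.424 at P15. P15 was called lower than P7 by 2.00 and lower than P0 by 2.12 on the log2 scale (log2 fold changes -2.00 and -2.12, standard error 0.107 each), while the log2 fold changes of P3 against P0 (0.01) and P7 against P3 (-0.14) were not called. With a pseudocount of 5 CPM in place of 1, both calls at P15 were lost, at -0.83 and -0.90.

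PTGS2, the inducible cyclooxygenase (chromosome 1, 186671791 to 186680922), had its highest values at P3. At P0 the libraries had log2 values of 5.44, 6.14, 5.74 and 5.53, and at P3 of 6.21, 6.25, 6.30 and 6.25. At P7 they had 5.21, 5.14, 5.36 and 5.16, and at P15 4.72, 4.85, 5.21 and 5.01. The spread at P0 (SD 0.31) was larger than at P3 (SD 0.04), and P7 and P15 overlapped. Phase means were 52.4, 75.3, 36.3 and 30.1 CPM. The only called step was from P3 to P7, with a log2 fold change of -1.03 (standard error 0.105), close to the 2-fold limit. That call was lost with quantile normalization (-0.98) and with a pseudocount of 5 (-0.96). P3 against P0 had 0.54, P15 against P7 had -0.27 and P15 against P0 had -0.76, none of them called.

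PTGS2 and PLA2G4A are neighbours, 148.0 kb apart with 0 annotated genes between them in GENCODE version 44, and PLA2G4A is thus the nearest tested gene on one side of PTGS2. Their log2 fold changes had opposite signs in each of the 4 comparisons (0.54 and -1.53, -1.03 and 0.84, -0.27 and 1.44, -0.76 and 0.76 for PTGS2 and PLA2G4A). Across the 16 libraries, which fall into 4 phases and are therefore not 16 independent points, the Pearson correlation of their log2 values was -0.72. TPR, a nuclear pore gene on the far side of PTGS2, was not called in any comparison. The antisense transcript PACERR shares 219 exon bases with PTGS2, and the strand setting of the counting is not given in the sources used here. PACERR was listed at means of 0.153, 0.0249, 0.225 and 0.201 CPM from P0 to P15, against 30.1 to 75.3 CPM for PTGS2.

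PTGES (microsomal prostaglandin E synthase 1; chromosome 9, 129738331 to 129753042) was highest in parental phase P0. Log2 values were 3.13, 3.36, 3.24 and 3.23 at P0, 1.25, 1.13, 1.29 and 1.13 at P3, 1.96, 1.53, 2.04 and 1.63 at P7, and 2.52, 2.62, 2.19 and 2.29 at P15. The 4 phases did not overlap, and the order was P0, P15, P7, P3. From a mean of 8.46 CPM at P0, PTGES was at 1.30 CPM at P3, a called log2 fold change of -2.04 (standard error 0.110) that ranked 45 from the lowest of the 13249 tested genes. Means of 2.50 CPM at P7 and 4.33 CPM at P15 followed, and neither step was called (0.59 and 0.62). P15 against P0 was at -0.84, also not called. PTGES2 and PTGES3, the other prostaglandin E synthases, were not called in any comparison.

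HPGD (15-hydroxyprostaglandin dehydrogenase; chromosome 4, 174490175 to 174523154) was near the detection limit throughout. Its log2 values were 0.21, 0.91, 0.37 and 0.53 at P0, 0.28, 0.38, 0.47 and 0.37 at P3, 0.71, 0.49, 0.49 and 0.64 at P7, and 0.20, 0.13, 0.15 and 0.24 at P15. Only the P0 libraries spread widely (SD 0.30), and they overlapped with every other phase. The highest phase mean was 0.501 CPM at P7 and the lowest 0.133 CPM at P15. P15 libraries held 4 to 8 estimated counts each. HPGD shares 314 exon bases with an unnamed gene on the other strand.

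In the leukotriene branch, ALOX5AP (the 5-lipoxygenase activating protein, also called FLAP; chromosome 13, 30713478 to 30764426) went from its highest level to almost none between P7 and P15. The libraries had log2 values of 5.46, 5.60, 5.47 and 5.38 at P0, 5.82, 5.73, 5.82 and 5.80 at P3, and 6.70, 6.63, 6.58 and 6.63 at P7. At P15, 1 library had 0.07 and the other 3 were at 0. No phases overlapped, and the order was P7, P3, P0, P15. Mean expression was 43.6, 54.4 and 98.4 CPM at P0, P3 and P7 and 0.0124 CPM at P15. Summed over the 4 libraries, this was an estimated 15928 counts at P7 and 2 counts at P15. The ratio was 8040 (2230 to 66400 over the 95% Poisson interval of the 2 counts at P15 alone). The fitted log2 fold changes were -6.62 for P15 against P7, rank 12 from the lowest of the 13249 tested genes, and -5.46 for P15 against P0 (standard error 0.051 each). The steps from P0 to P3 (0.32) and from P3 to P7 (0.84) did not reach 2-fold. In such bulk libraries, fewer expressing cells and less RNA per cell cannot be told apart.

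ALOX5AP is best known from myeloid and mast cells, so markers of both were read beside it. Of 8 leukocyte markers, only CD14 passed the filter on the mean, with 6.81, 1.95, 5.83 and 0.0577 CPM from P0 to P15. PTPRC (CD45), which defines leukocytes, was listed at 0 in all libraries of P0, P3 and P7 and at a mean of 0.0143 CPM at P15. Summed leukocyte markers ranged from 6.31 to 8.73 CPM at P0, 2.09 to 2.53 at P3, 5.68 to 6.39 at P7 and 0.195 to 0.794 at P15. Mast cell markers summed to 0.338 to 0.580 CPM at P0, 0.790 to 0.945 at P3, 0.580 to 0.717 at P7 and 0 at P15 over the 3 of 5 that were in the table. Nearly all of that was KIT, and CPA3 was at 0 in all 16 libraries. The tested genes next to ALOX5AP on chromosome 13 were called in none of the 4 comparisons. These were USPL1, 52.7 kb before it (log2 fold change 0.40 from P7 to P15), and the heat shock gene HSPH1, 370.5 kb after it (-0.30).

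ALOX5 itself (5-lipoxygenase; chromosome 10, 45374176 to 45446119) was barely detected. It was at 0 in all 4 libraries of P0, where 3 counts over the phase would equal 0.0208 CPM. The log2 values were 0.11, 0.20, 0.13 and 0.20 at P3, 0.43, 0.42, 0.30 and 0.21 at P7, and 0.04, 0, 0.08 and 0 at P15. Each library of P3 and P7 was above every library of P0 and P15. Estimated counts summed to 0, 18, 44 and 3 per phase. Against a floor of 3 counts taken over P0, the rates at P3 and P7 were 5.66-fold and 13.1-fold higher. With the upper 95% Poisson limit of the 0 counts at P0 in place of the floor, the ratios were 4.60 and 10.7. Counting error at P3 and P7 is in none of these values. The ratio of P7 to P15 was 14.8 (5.07 to 71.8 over the 95% Poisson interval of the 3 counts at P15 alone). ALOX5 and ALOX5AP both had their highest mean at P7, and per kb of exon ALOX5AP was at 58.6 CPM there and ALOX5 at 0.0720.

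LTA4H (leukotriene A4 hydrolase; chromosome 12, 96000753 to 96043520) had the same order of phases as PLA2G4A and the smallest standard error of the 7 tested genes. Log2 values were 6.49, 6.43, 6.49 and 6.45 at P0, 5.83, 5.90, 5.84 and 5.81 at P3, 6.22, 6.22, 6.23 and 6.19 at P7, and 7.31, 7.29, 7.22 and 7.26 at P15. The phases did not overlap. Means were 87.4, 56.5, 73.3 and 153 CPM. Only the step from P7 to P15 was called, with a log2 fold change of 1.06 (standard error 0.032). It was followed in size by P15 against P0 (0.80), P3 against P0 (-0.62) and P7 against P3 (0.37). The order P15, P0, P7, P3 of phase means was found in 1668 of the 13249 tested genes (12.6%). LTA4H shares 925 exon bases with 2 unnamed genes on the other strand.

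PTGER4, the EP4 receptor for PGE2 (chromosome 5, 40679915 to 40693735), ran opposite to PLA2G4A and LTA4H. Its log2 values were 2.58, 2.76, 2.59 and 2.43 at P0, 4.03, 4.02, 4.04 and 4.08 at P3, 3.27, 3.29, 3.28 and 3.37 at P7, and 1.57, 1.64, 1.26 and 1.58 at P15. All phases were apart, in the order P3, P7, P0, P15. Mean expression was 5.04, 15.5, 8.87 and 1.87 CPM. P3 was called higher than P0 (log2 fold change 1.45), and P15 was called lower than P7 (-1.79) and lower than P0 (-1.08), with a standard error of 0.083 each. The last of these calls was lost without P15 replicate 3 (-0.99) and with a pseudocount of 5 (-0.55). P7 against P3 was at -0.74 and not called.

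PTGER2, the EP2 receptor (chromosome 14, 52314305 to 52328598), was highest in parental phase P0 and did not pass the filter on the mean. Log2 values were 1.25, 1.03, 0.99 and 0.96 at P0, 0.61, 0.48, 0.47 and 0.56 at P3, 0.61, 0.64, 0.90 and 0.64 at P7, and 0.46, 0.55, 0.22 and 0.24 at P15. Each library of P0 was above every other, while P3 overlapped with both P7 and P15. The phase means were 1.09, 0.445, 0.627 and 0.296 CPM. Per kb of exon, PTGER4 was at 4.37 CPM and PTGER2 at 0.181 CPM at P3, and at 0.527 and 0.120 CPM at P15.

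**Figure D2:**
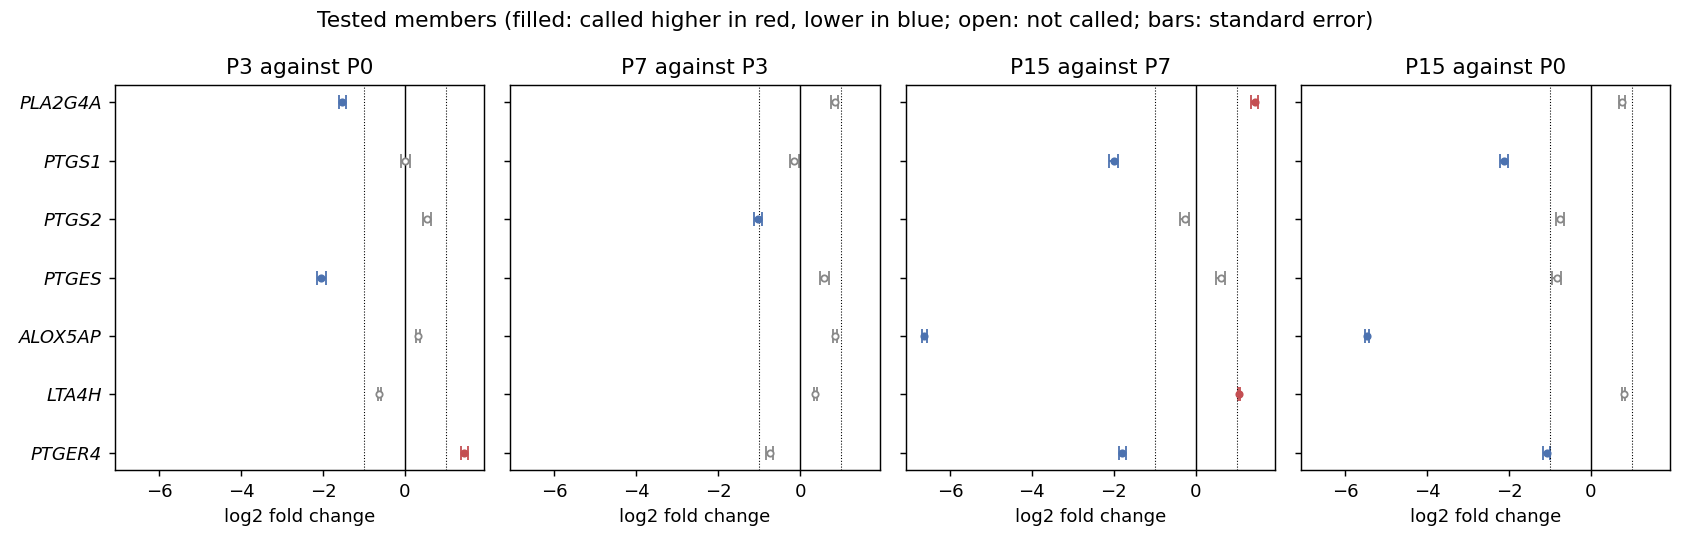
Log2 fold changes of the 7 tested genes in 4 comparisons, with standard errors; filled points were called, open points were not, and dotted lines mark a 2-fold change. The longest distance is that of ALOX5AP at P15 against P7 (-6.62), and PLA2G4A and PTGER4 lie on opposite sides of 0 in each comparison.

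Counted over the 7 tested genes, PTGER4 was called higher and PLA2G4A and PTGES lower at P3 against P0, where 1.95% of all tested genes were called higher and 2.51% lower, 4.47% together. At P7 against P3, 0 were called higher and PTGS2 alone lower (0.996% and 0.845% of all tested genes, 1.84% together). At P15 against P7, PLA2G4A and LTA4H were called higher and PTGS1, ALOX5AP and PTGER4 lower (13.4% and 12.1%, 25.5% together). At P15 against P0, 0 were called higher and PTGS1, ALOX5AP and PTGER4 lower (12.2% and 11.5%, 23.6% together). The median log2 fold changes of the 7 genes in this order of comparisons were 0.01, 0.37, -0.27 and -0.84, and those of all tested genes were -0.02, 0.01, 0.05 and 0.04. Nothing is read from these counts, since the same comparisons were known when the genes were chosen.

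Per kb of exon, the abundance of the pathway shifted between genes. The length used was that of all annotated exons of a gene merged, 7.405 kb for LTA4H and 1.68 kb for ALOX5AP. It can exceed that of the transcript expressed, so the order between genes is approximate. At P7 ALOX5AP stood at 58.6 CPM, LTA4H at 9.90, PTGS2 at 6.61, PLA2G4A at 4.16, PTGER4 at 2.50, PTGES at 1.32 and PTGS1 at 0.805. At P15 LTA4H stood at 20.7 CPM, PLA2G4A at 11.9, PTGS2 at 5.49, PTGES at 2.29, PTGER4 at 0.527, PTGS1 at 0.0733 and ALOX5AP at 0.00740. Of the 2 cyclooxygenases, PTGS2 was thus the more abundant in every phase, with 9.55 against 0.887 CPM per kb at P0 and 13.7 against 0.896 at P3.

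Among the tested genes, PLA2G4A and LTA4H had a Pearson correlation of 0.95 over the 16 libraries, PTGS1 and ALOX5AP of 0.96, and PTGER4 of -0.98 with both PLA2G4A and LTA4H. PTGES had correlations of -0.32 with PTGS2 and 0.72 with PLA2G4A. These values mostly reflect 4 phase means and are descriptions. Over all tested genes, the ones most like ALOX5AP in pattern were NEURL1, CLEC11A and CCNY (each 0.999). NEURL1 had mean log2 values of 5.28, 5.74, 6.52 and 0.26 from P0 to P15, and CCNY, with the same correlation, moved over a narrower range of 7.12, 7.22, 7.39 and 5.97. CCDC34 (0.993), CAP1 (0.990) and CAV1 (0.989) were most like PTGER4. SLC25A23 (0.991), MID1IP1 (0.989) and TMEM154 (0.988) were most like PLA2G4A.

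**Figure D3:**
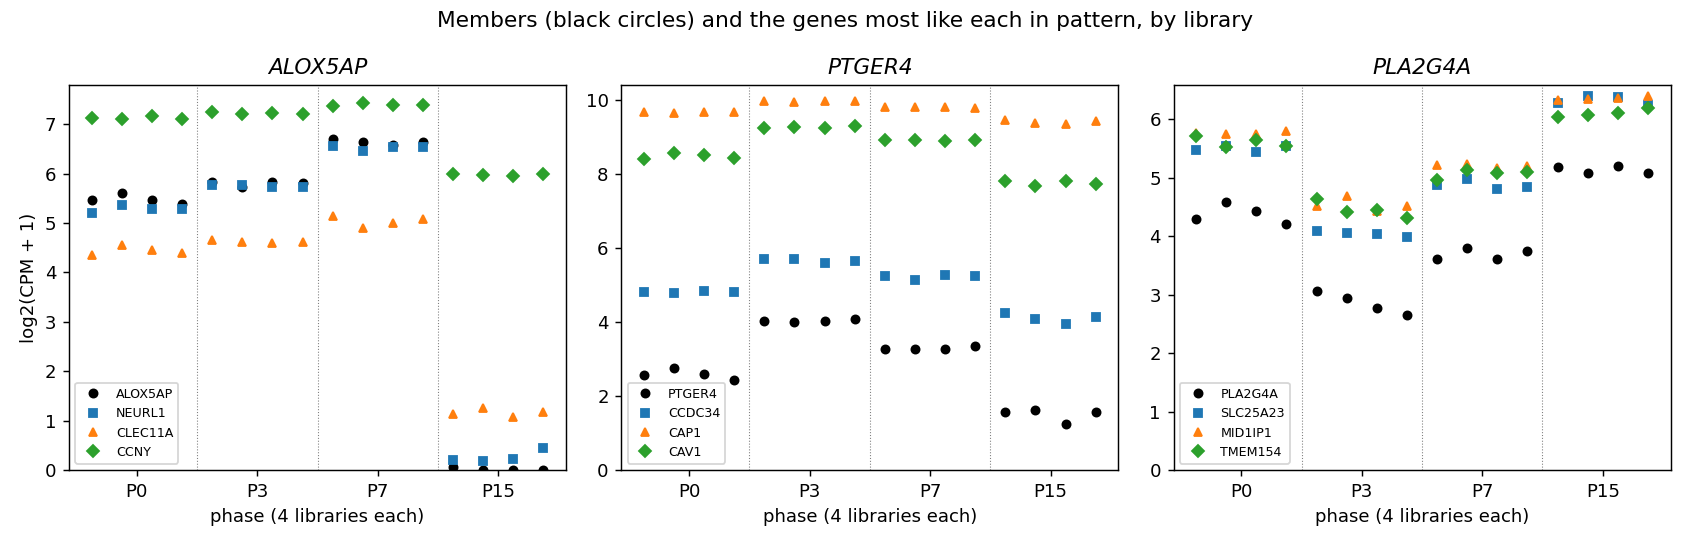
Log2(CPM + 1) of ALOX5AP, PTGER4 and PLA2G4A (black circles) and of the 3 genes with the highest Pearson correlation to each, in 16 libraries by phase. NEURL1 lies close to ALOX5AP at P3, with means of 5.74 and 5.79, and CAV1 lies above PTGER4 in every phase.

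Beyond these 10 genes, 94 symbols of genes in or around the pathway were listed, with FAM213B also under its other name PRXL2B. Of these, 91 were in the table and 52 were tested, and they are called other pathway genes here. The 52 include 13 regulators of PTGS2 and 10 targets of cAMP signalling, which are not steps of synthesis. Pooled counts over the 52 are thus not counts of the synthesis pathway alone. These lists, too, were chosen with results of these libraries known, so the adjusted p-values below, taken from the fit over all tested genes, are not independent evidence. At P3 against P0, 3 were called higher and 4 lower, beside 1.95% and 2.51% of all tested genes. DUSP1, a phosphatase of MAP kinases and a target of cAMP signalling, rose 6.11-fold on the log2(CPM + 1) scale (log2 fold change 2.61, standard error 0.075, limma adjusted p = 4.0e-19). ATF3, a stress-induced transcription factor that acts on PTGS2, rose by 1.68 (adjusted p = 5.4e-13), and the cAMP phosphodiesterase PDE4B by 1.08 (adjusted p = 2.5e-10). With a pseudocount of 5 both calls were lost, at 1.00 for ATF3 and 0.43 for PDE4B, and PDE4B was not tested when at least 1 CPM was required in all libraries. AKR1B1, an aldose reductase that can make prostaglandin F2α, fell by 1.96 from 1921 to 493 CPM (adjusted p = 4.5e-20). The epoxide hydrolase EPHX1 fell by 1.36 (adjusted p = 1.5e-16) and the fatty acid desaturase FADS2 by 1.23 (adjusted p = 1.7e-18), each on the log2 scale, and FADS1 was the remaining gene called lower. Both desaturases work on the way from linoleic to arachidonic acid.

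Between P3 and P7, 1 of the 52 was called higher and 1 lower, close to the 0.996% and 0.845% called over all tested genes. AKR1C3, which also makes prostaglandin F2α, rose by 1.43 on the log2 scale (adjusted p = 1.5e-09), a call that was lost with a pseudocount of 5 (0.91). DUSP1 fell by 1.88 (adjusted p = 7.2e-16), and its means from P0 to P15 were 49.2, 302, 81.3 and 174 CPM.

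At P15 against P7, 19 of the 52 were called higher and 5 lower, beside 13.4% and 12.1% of all tested genes, with a median log2 fold change of 0.41 against 0.05 over all tested genes. By list, 6 of 13 regulators of PTGS2 were called higher and 0 lower, and 6 of 10 targets of cAMP signalling higher and 1 lower. For eicosanoid transport and inactivation, 3 of 8 genes were called higher and 0 lower. Of 7 other prostanoid synthases, 0 were called higher and 3 lower. Genes that were not called may still have changed by less than 2-fold. The shares of 13.4% higher and 12.1% lower are the background of these counts too, and none of the lists was tested as a set. PER1, a clock gene responsive to cAMP, rose from 9.66 to 220 CPM (log2 fold change 4.38, adjusted p = 1.3e-26). The nuclear receptor NR4A2 rose by 3.28 (adjusted p = 5.8e-20) and ZFP36, which speeds the decay of mRNAs with AU-rich elements such as that of PTGS2, by 3.00 (adjusted p = 2.9e-21). MGST2, a microsomal glutathione transferase that can make leukotriene C4, fell from 35.2 to 0.349 CPM (log2 fold change -4.75, adjusted p = 1.7e-26). AKR1C3 fell by 2.06 (adjusted p = 1.6e-13) and AKR1B1 by 1.72 (adjusted p = 3.8e-20). FAM213B and the cAMP target PDE4B were the remaining genes called lower. LTC4S, the main leukotriene C4 synthase, was listed at 0 in every phase.

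Other genes of the lists were called higher from P7 to P15. LTB4R, the high-affinity receptor of leukotriene B4, and the lipoxygenase ALOXE3 were among them, as were the phospholipase PLA2G4C, FADS2, the epoxygenase CYP2J2, the epoxide hydrolase EPHX2 and PTGR2, which reduces 15-keto-prostaglandins. Among the regulators of PTGS2, ATF3, JUNB, CEBPD, NFATC2 and ZFP36L1 were called higher with ZFP36. PTGS2 itself was not called in this comparison.

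Relative to parental phase P0, late phase P15 had 19 of the 52 called higher and 4 lower, beside 12.2% and 11.5% of all tested genes (median log2 fold change 0.43 against 0.04 over all tested genes). PER1 (4.21, adjusted p = 3.0e-26), ATF3 (4.08, adjusted p = 1.6e-21) and NR4A2 (3.12, adjusted p = 1.7e-19) rose most on the log2 scale. MGST2 (-4.49, adjusted p = 5.5e-26), AKR1B1 (-3.38, adjusted p = 4.8e-26) and FAM213B, a prostaglandin F synthase (-1.30, adjusted p = 1.7e-18), fell most. By list, 7 of 10 targets of cAMP signalling were called higher and 0 lower, and 5 of 13 regulators of PTGS2 higher and 0 lower. Phospholipases and arachidonate handling had 3 of 9 higher and 0 lower, and transport and inactivation 2 of 8 higher and 1 lower. Other prostanoid synthases had 0 of 7 higher and 2 lower. Lipoxygenase and leukotriene enzymes had 1 of 3 higher and 1 lower, and receptors 1 of 2 higher and 0 lower. The background is the same, and none of the lists was tested as a set. Of the 12 other receptors for prostanoids and leukotrienes, 2 passed the filter on the mean, and PTGDR and CYSLTR1 were listed at 0 in every phase. LTB4R2, the second receptor of leukotriene B4, had means of 0.406, 0.962, 0.554 and 1.14 CPM from P0 to P15. PTGIR, the prostacyclin receptor, was not tested either and had means of 0.123, 0.266, 0.118 and 1.09 CPM from P0 to P15.

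**Figure D4:**
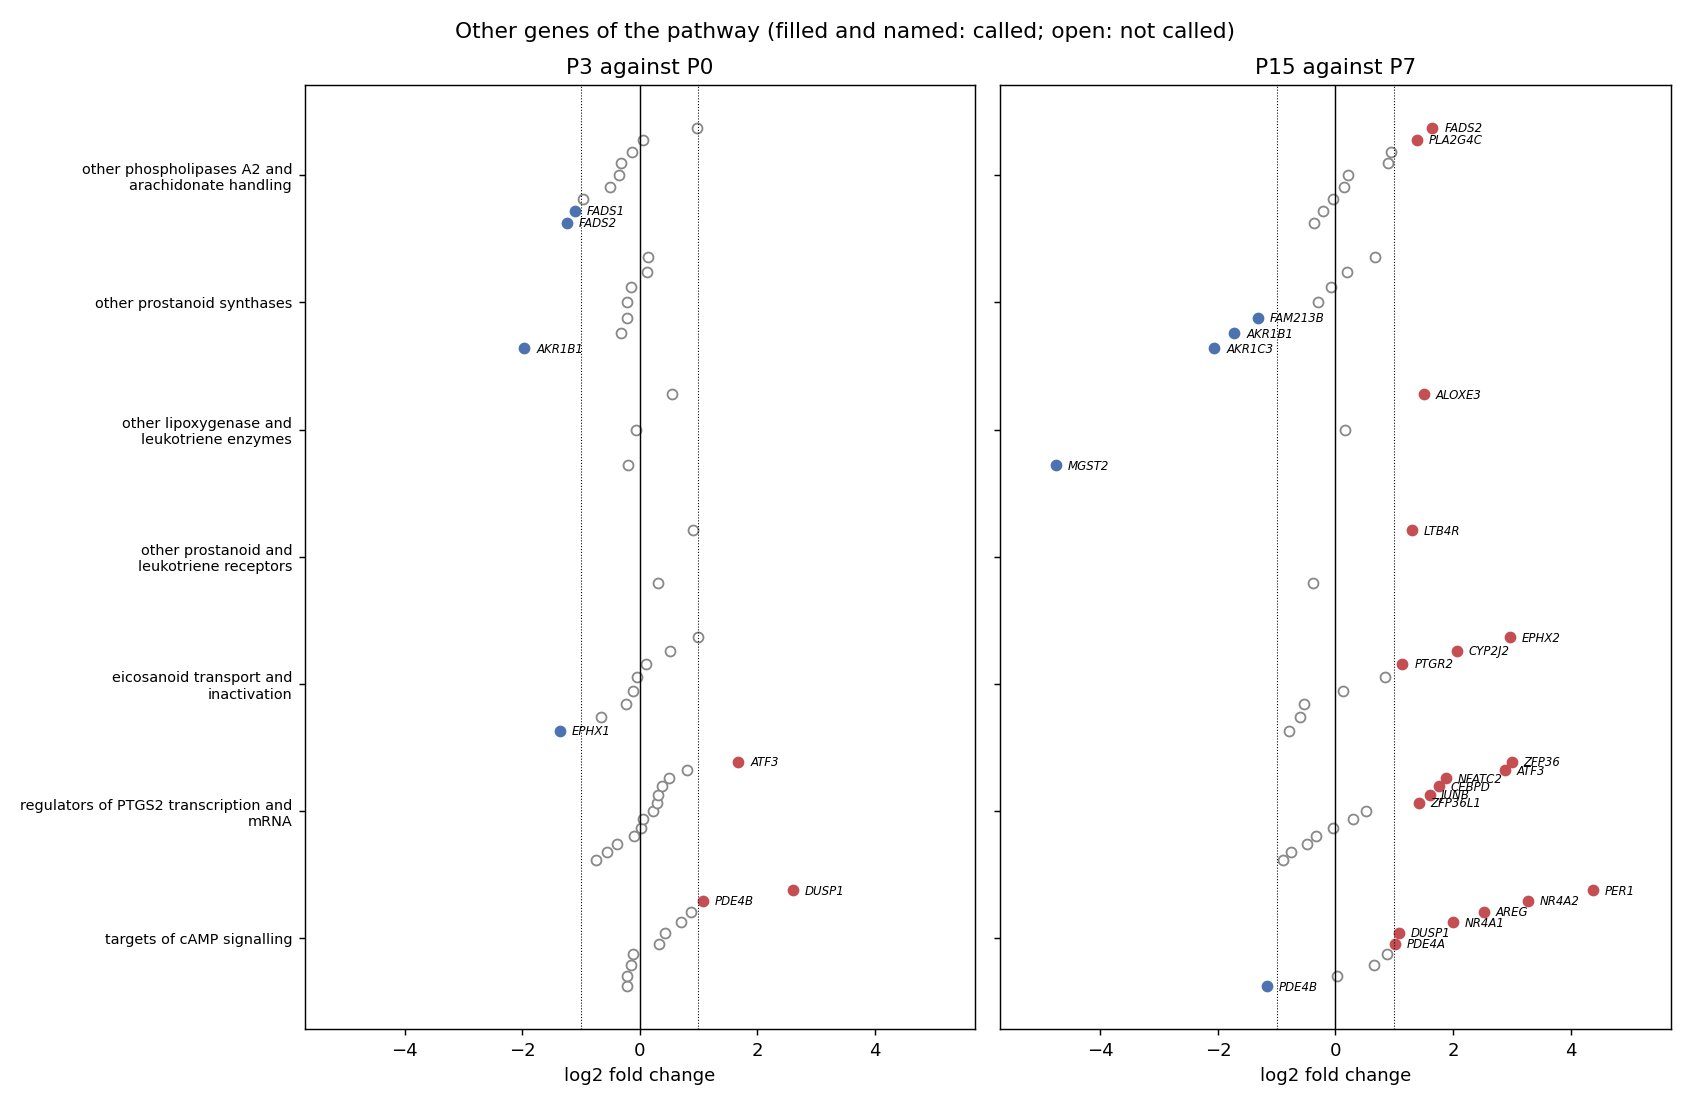
Log2 fold changes of the 52 other pathway genes tested, by list, at P3 against P0 and at P15 against P7. Filled points with names were called, open points were not, and dotted lines mark a 2-fold change. At P15 against P7, 19 points lie among the called on the right and 5 on the left, with MGST2 farthest left at -4.75 and PER1 farthest right at 4.38.

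Markers of the cells were read from the same libraries. Epithelial markers summed to 2070 to 2150 CPM at P0, 2350 to 2480 at P3, 1670 to 1810 at P7 and 673 to 751 at P15, with KRT7 at a mean log2 value of 9.90 at P0 and 3.64 at P15. KRT18 went the other way, from 471 CPM at P0 to 633 CPM at P15, and made up most of the sum there. None of 7 urothelial markers passed the filter on the mean, and their sums were 0.555 to 3.11 CPM. UPK1A reached a mean of 1.98 CPM at P15, and the other 6 stayed below 1 CPM in every phase. Fibroblast markers summed to 1.75 to 8.17 CPM up to P7 and to 25.6 to 28.8 at P15, most of it COL1A1. Endothelial markers summed to at most 7.95 CPM at P0, mostly CDH5, and to at most 1.09 later. These sums differed between phases, as the 10 genes did, and their part in the results was not tested.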

How the data were processed

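RNA of 16 libraries (4 per phase) was sequenced as paired-end reads. Per the labels and the study's methods, the authors aligned reads to GRCh38 with STAR 2.6.1a, counted them on genes with featureCounts and scaled the counts to CPM. The deposited table holds log2(CPM + 1) with 2 decimals. Linear values summed to 999894 to 1000095 CPM per library, so the quantile normalization and median centring that the methods name are not in them. Counting strand and annotation release are not given in the sources used here.

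Groups came from the phase in the labels and replicate numbers from the sample descriptions, which differ from the number in the title for 14 libraries. Estimated counts are CPM divided by the CPM of 1 count. limma 3.58.1 in R 4.3.3 was fitted to all 16 libraries with a coefficient for each phase and a mean-variance trend, and p-values were adjusted by Benjamini-Hochberg over 13249 genes with a mean above 1 CPM, after tests on simulated data. Fold changes on the log2(CPM + 1) scale understate changes of low genes. Python 3.11.15 with numpy 2.4.6, pandas 2.3.3, scipy 1.17.1 and matplotlib 3.10.9 made tables and figures. Annotation is GENCODE version 44, and promoters are RefSeq (GRCh38.p14), which matched 9 of the 10 genes. Values per kb of exon divide by the merged length of all annotated exons of a gene. Poisson intervals (95%) and the floor of 3 counts cover only the counting error of the phase with fewer counts.

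The genes and lists were chosen with earlier results of these data known. By rule, values are given for all 10 genes, for at most 3 other pathway genes in each direction per comparison, for the 3 genes most correlated with each of the 3 genes of widest range, and for the nearest tested neighbours. PTGES2, PTGES3, PTGIR, PTGDR, CYSLTR1, LTB4R2, PACERR and LTC4S were named beyond it, after their values were seen. The results were recomputed with other filters, with pseudocounts of 0.1 or 5 CPM, after quantile normalization, with equal medians, a replicate block, no variance trend, pairs of phases alone, no fold threshold and each library left out.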

Additional observations from a re-analysis of the deposited data

Results flagged for a closer look

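In 40 groups of 4 libraries (10 genes in 4 phases), 2 held a library far from the others by Dixon's test at the 95% level, and about 1 in 20 groups, or 2 of 40, is expected by chance. ALOX5AP in P15 replicate 1 had a log2 value of 0.07, with the other 3 libraries at 0, a difference of 2 estimated counts. With 3 libraries tied at 0, any other value is flagged. ALOX5 at P0 was at 0 in all 4 libraries and could not be flagged, so the number expected by chance is approximate. PTGER2 in P7 replicate 3 had 0.90, with the others at 0.61 to 0.64, a gap of 0.90 of the range.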

How the results depend on the processing

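Of the 8 counts of called genes, 201 of 216 values under other settings stayed within 1.5 times, including all 128 with 1 library left out. Each phase has its own coefficient, so leaving out a library of a phase not compared cannot change a fold change. Such values, among these counts and the fold changes below, say little about stability. Without the fold threshold, 6, 6, 7 and 7 of the 7 tested genes were called at P3 against P0, P7 against P3, P15 against P7 and P15 against P0, and 42, 37, 48 and 51 of the other pathway genes. In the same order, 9100, 7713, 11452 and 11423 of all 13249 tested genes were called, so most genes were called in this setting. With a pseudocount of 5, 0 of the 7 genes were called at P7 against P3 and 1 at P15 against P0, with 1 other pathway gene at P7 against P3. A pseudocount of 0.1 gave 13 other pathway genes at P3 against P0 and 4 at P7 against P3. Quantile normalization left 0 of the 7 genes at P7 against P3. With at least 1 CPM required in all libraries, 3 remained called at P15 against P7 and 1 at P15 against P0, because ALOX5AP and PTGS1 were then not tested. That filter left 11523 genes of the whole series to test, of which 2345 and 2127 were called in these comparisons. Of 2164 log2 fold changes of named genes, 26 lost their call, most with a pseudocount of 5, and 2 changed sign: PTGS1 at P3 against P0 was -0.02 without P0 replicate 3 and -0.01 without P3 replicate 2, from 0.01, and up to 0.04 without another library. Leaving out a library cost 2 calls, PTGER4 at P15 against P0 without P15 replicate 3 (-0.99) and PDE4A at P15 against P7 without P7 replicate 2 (0.98, from 1.01). A replicate block by either numbering changed no count (3, 1, 5 and 3 of the 7 genes, and 7, 2, 24 and 23 other pathway genes). Both numberings are balanced over the phases, so a block could change the standard errors but not the fold changes. Deviations of libraries with the same number had correlations of -0.15 to 0.22, so the numbers were not taken as pairs. Over all genes, the number called at P3 against P0 was 592, and 939 with a pseudocount of 0.1, 290 with 5, 381 with at least 1 CPM in all libraries and 9100 without the fold threshold. At P7 against P3 these were 244, 445, 106, 139 and 7713, at P15 against P7 3377, 3842, 2166, 2345 and 11452, and at P15 against P0 3129, 3601, 1976, 2127 and 11423. Depth limits ALOX5, HPGD and PTGER2, with at most 52 estimated counts per library.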

Other observations

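The tested genes nearest to PTGS1 (MRRF and PDCL), PTGES (ASB6 and TOR1B) and LTA4H (SNRPF and ELK3) were called in none of the 4 comparisons. Around PTGER4, DAB2 was called lower at P15 against P7 (log2 fold change -1.20), 1217.6 kb away, and PRKAA1, 65.7 kb away, was not called (-0.42). RGS2, the next tested gene after PLA2G4A at a distance of 5820.1 kb, was called higher at P15 against P7 (1.62). GNG2, 335.0 kb before PTGER2, was called lower (-2.15), and CEP44, 156.8 kb before HPGD, was called higher (1.10) in the same comparison. Near ALOX5, ZNF22 was called lower at P15 against P7 (-1.48) and ZFAND4 was not called there (0.96).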
